A study of Mus musculus with 11 samples.

Results

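Tumours of mice given OPG-Fc alone were compared with tumours of mice given vehicle. Each tumour came from 4T1, a cell line of a mouse mammary carcinoma that models the triple-negative form of breast cancer, injected in matrigel under the skin of both flanks of NSG mice. Treatment began at a tumour volume of about 100 mm3 and lasted 12 days, with OPG-Fc at 10 mg/kg into the peritoneum 3 times a week (n = 3 tumours) or vehicle, made of sodium lactate, corn oil and DMSO (n = 2 tumours). The remaining 6 of the 11 tumours were from mice given palbociclib at 30 mg/kg per day by mouth together with OPG-Fc at the same dose (n = 3) or palbociclib alone (n = 3). All tumours carry the genotype label WT, and the vehicle tumours are titled untreated while their treatment label reads vehicle. The members were the 3 OPG-Fc and 2 vehicle libraries, 5 of 11 in all, and the 12701 of 17181 listed genes with an FPKM (fragments scaled to transcript length and to the mapped fragments of the library) of at least 1 in at least 2 of these 5.

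OPG-Fc joins osteoprotegerin, a secreted decoy receptor, to the Fc part of an antibody. Osteoprotegerin binds RANKL (Tnfsf11) and keeps it from its receptor RANK (Tnfrsf11a), and it also binds TRAIL (Tnfsf10). RANK signals through TRAF adaptors to the canonical and noncanonical NF-kB pathways and, in the macrophage lineage, to NFATc1, the switch for osteoclast formation. In the mammary gland RANKL passes the progesterone signal from luminal cells to progenitor cells.

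The vehicle tumours were unlike each other, and each is therefore given apart. Vehicle replicate 2 was poor in epithelial and rich in lymphoid transcripts. The 18 tested epithelial and luminal genes summed to an FPKM of 2980 to 3150 in the OPG-Fc tumours, against 3390 in vehicle replicate 1 and 75.2 in vehicle replicate 2. The 14 B and plasma cell genes summed to 100, 955 and 91.4 in OPG-Fc replicates 1, 2 and 3, against 82.4 and 7900 in vehicle replicates 1 and 2. Lymph node stroma genes (9 tested) summed to 44.4, 336 and 44.3 in the OPG-Fc tumours, against 32.9 and 2130 in the vehicle tumours. NSG mice lack mature lymphocytes while the series title names a syngeneic model, and the labels do not settle where these transcripts came from. Adipocyte genes also differed between the vehicle tumours. Their summed FPKM was 1190 to 3680 in the OPG-Fc tumours, 176 in vehicle replicate 1 and 2200 in vehicle replicate 2. The FPKM sum of all genes was 576699 to 646150 in the OPG-Fc tumours and 581247 and 609330 in the vehicle tumours, and the read depth is unknown. The labels do not say which tumours shared a mouse. The column names of OPG-Fc replicates 2 and 3 share their first number, and every p-value below therefore covers the spread among tumours that may share a mouse.

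Connective tissue and vessel wall genes had larger shares above both vehicle tumours than all tested genes had, and 7 of 33 type I interferon response genes lay below both. Of the 12701 genes, 1608 (12.7%) had all 3 OPG-Fc values above both vehicle values and 1113 (8.76%) had all 3 below both, and these are the background shares for the counts that follow. Among the 1608, 80 had neither vehicle tumour at an FPKM of 1 and passed the filter only through the OPG-Fc tumours. The gap, the distance on the log2(FPKM + 1) scale between the nearest OPG-Fc and vehicle values, was at least 1 for 9 genes above (0.0709%) and for 0 below, and at least 0.5 for 96 above (0.756%) and 8 below (0.063%). No gene passed the limma test over all 11 libraries at an adjusted p of 0.05, with 0 called higher, 0 called lower and a smallest adjusted p of 0.458. The same test gave 1329 genes (10.5%) at an unadjusted p under 0.05, of which 992 (7.81%) were higher and 337 (2.65%) lower. A fit to the 5 libraries alone gave 0 calls and 464 such genes (3.65%). The split between genes above and below turned with the scaling, to 1311 (10.3%) and 1539 (12.1%) with median-of-ratios factors, 1079 (8.5%) and 2003 (15.8%) with quantile normalization, and 809 (6.52%) and 2059 (16.6%) of 12403 after a correction for transcript length and GC content.

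The differences depended on which vehicle tumour was used. Set against vehicle replicate 1 alone, 4982 genes (39.2%) had all 3 OPG-Fc values above it and 3302 (26%) below it. Set against vehicle replicate 2 alone, 5113 (40.3%) lay above and 5580 (43.9%) below. The keratin Krt8, of simple epithelia, had an FPKM of 658, 606 and 587 in the OPG-Fc tumours, against 593 in vehicle replicate 1 and 9.34 in vehicle replicate 2. Jchain, the joining chain of secreted antibodies, had 13.3, 476 and 11.7 in the OPG-Fc tumours, against 9.19 and 3925 in the vehicle tumours. Krt8 was close to vehicle replicate 1 only and Jchain was far below vehicle replicate 2, so the mean difference of such a gene follows which vehicle tumour is used. Without vehicle replicate 2, limma called 4 genes higher and 0 lower of 12444. Without vehicle replicate 1 it called 2787 higher (22%) and 2521 lower (19.9%) of 12657. Each of these fits has 1 vehicle tumour, whose own spread is taken from the remaining groups.

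**Figure D1:**
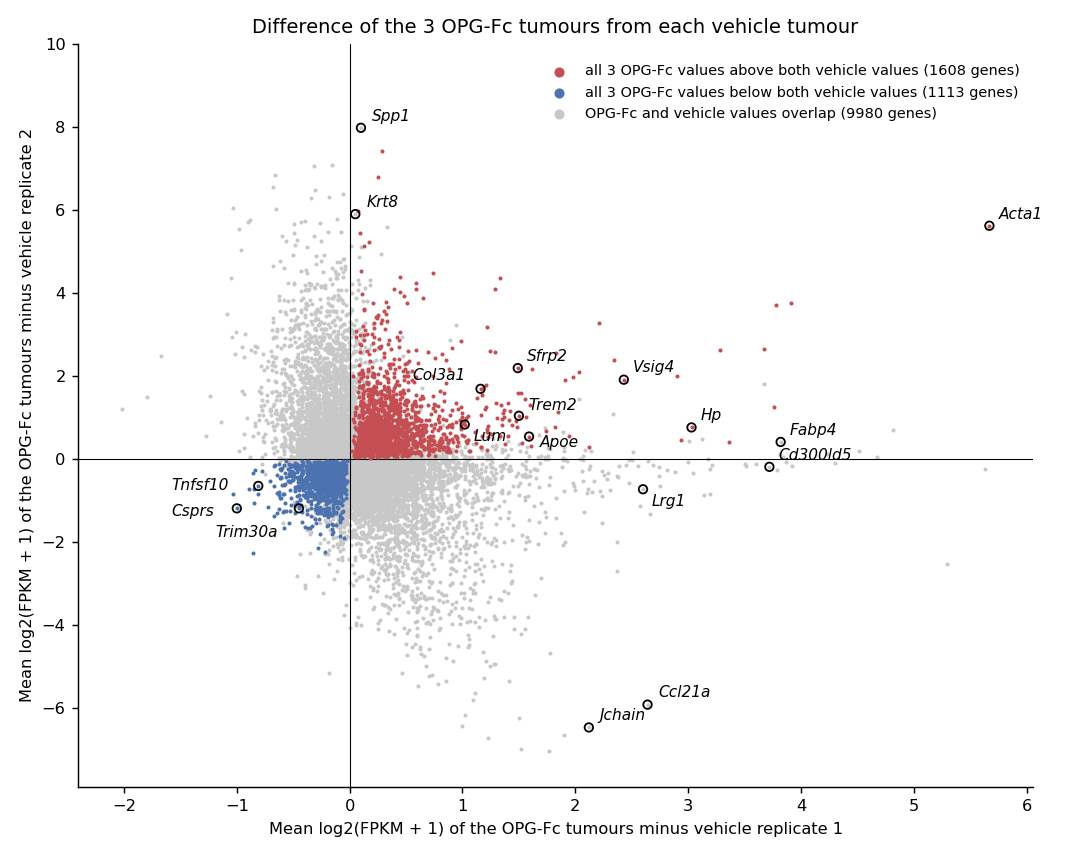
Each point is a gene, placed by the mean log2(FPKM + 1) of the 3 OPG-Fc tumours minus vehicle replicate 1 (x axis) and minus vehicle replicate 2 (y axis), and coloured by whether all 3 OPG-Fc values lay above both vehicle values (1608 genes), below both (1113) or overlapped with them. The spread along the y axis is wider than along the x axis, with Krt8 and Spp1 at the top and Jchain and Ccl21a at the bottom, and Acta1 at the far upper right.

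The largest gap was that of Acta1, the actin of skeletal muscle fibres, with an FPKM of 9.43, 98.2 and 150.7 in the OPG-Fc tumours, against 0.06 and 0.10 in the vehicle tumours. Acta1 passed the filter only through the OPG-Fc tumours, so its gap was partly fixed by the filter. It was also present in both other groups, at 149.4, 132.3 and 22.1 with palbociclib and OPG-Fc, and 70.1, 108.3 and 23.7 with palbociclib alone. Vsig4, a complement receptor of tissue macrophages, had 10.4, 5.00 and 7.62 in the OPG-Fc tumours, against 0.56 and 1.23 in the vehicle tumours. Its values with palbociclib and OPG-Fc were 4.68, 0.69 and 10.2, against 0.41, 0.13 and 0.06 with palbociclib alone, so the groups given OPG-Fc did not overlap with their controls in either setting. Sfrp2, a secreted Wnt modulator of fibroblasts, had 48.5, 25.9 and 28.2 in the OPG-Fc tumours, against 11.1 and 6.41 in the vehicle tumours. It too lay higher with palbociclib and OPG-Fc (16.8, 7.72 and 15.01) than with palbociclib alone (4.80, 4.94 and 4.69), with no overlap.

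Dpep2, a membrane dipeptidase that cleaves leukotriene D4, had an FPKM of 13.9, 9.84 and 11.8 in the OPG-Fc tumours and 4.05 and 4.18 in the vehicle tumours. The C-type lectin gene Cd209c had 45.8, 25.8 and 35.9 in the OPG-Fc tumours and 11.8 and 10.98 in the vehicle tumours. Dpep2 was again separated in the palbociclib groups (12.4, 9.43 and 15.4 with both drugs, 7.02, 4.91 and 5.33 with palbociclib alone), while the palbociclib groups overlapped for Cd209c. Gchfr, the feedback regulator of GTP cyclohydrolase, had 3.88, 5.93 and 2.47 in the OPG-Fc tumours, against 0.67 and 0.79 in the vehicle tumours. Pet117, an assembly factor of cytochrome oxidase, was listed at 0 in both vehicle tumours and in 1 palbociclib tumour and at 4.45, 2.30 and 2.40 in the OPG-Fc tumours. Gchfr and Pet117, like Acta1, passed the filter only through the OPG-Fc tumours, so their gaps were partly fixed by it. Tpm2 (a tropomyosin), Cracr2b (a regulator of calcium entry), Sbsn and Cstdc5 (genes of the epidermis and of stefin-type protease inhibitors) and Reg1 (a secreted lectin) completed the 12 genes with the largest gaps above, with gaps of 0.96 to 1.18.

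Gaps below were smaller. Csprs had an FPKM of 2.72, 2.36 and 2.35 in the OPG-Fc tumours, against 5.96 and 6.91 in the vehicle tumours. It shares sequence with repeated copies near Sp100, so its counting is uncertain, and Sp100 itself, chosen after its values were seen, overlapped (31.8, 49.5 and 34.5 in the OPG-Fc tumours, 42.1 and 144.6 in the vehicle tumours). Srp54a, a signal recognition particle gene, had 3.18, 2.69 and 3.58 in the OPG-Fc tumours, against 6.45 and 7.53 in the vehicle tumours. The sum with its near copies Srp54b and Srp54c overlapped, at 75.3, 68.7 and 65.4 in the OPG-Fc tumours and 66.1 and 98.7 in the vehicle tumours. Adamdec1, a metalloprotease-like gene of macrophages and dendritic cells, had 8.26, 10.6 and 8.10 in the OPG-Fc tumours, against 19.2 and 16.9 in the vehicle tumours. Il10, an anti-inflammatory cytokine, had 1.91, 1.76 and 1.85 in the OPG-Fc tumours, against 3.53 and 3.41 in the vehicle tumours. Il10 was close in all 3 OPG-Fc tumours, and its palbociclib groups overlapped (3.26, 4.05 and 2.00 with both drugs, 5.14, 4.99 and 3.72 with palbociclib alone). The other 8 of the 12 largest gaps below ran from -0.61 to -0.44, among them Cysltr2, a receptor for cysteinyl leukotrienes, and Arap2, a GTPase regulator.

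Matrix genes lay above both vehicle tumours in numbers above the background of 12.7%. Of 10 tested genes of fibrillar and beaded collagens, 8 lay above both and 0 below. Col3a1, the chain of type III collagen, had an FPKM of 983, 614 and 779 in the OPG-Fc tumours, against 347 and 241 in the vehicle tumours. Its log2 difference was 1.42 ± 0.26 (SE) with an adjusted p of 0.458 by limma. Col1a2, of type I collagen, had 728, 502 and 644 in the OPG-Fc tumours, against 438 and 124.59 in the vehicle tumours, and Col6a2, of beaded filaments, had 96.4, 93.8 and 109.1 in the OPG-Fc tumours, against 69.2 and 56.6 in the vehicle tumours. The median log2 difference of the 10 genes was 0.41 from vehicle replicate 1 and 2.31 from vehicle replicate 2, while that of all tested genes was 0.05 and -0.03. Most of the mean difference of this list thus came from vehicle replicate 2. With the length and GC correction, 3 of the 10 lay above both, against 6.52% of all genes. In the palbociclib groups the list went both ways, with 5 genes higher and 5 lower on the mean with both drugs and a median of 0.02. Of all genes 53.5% were higher. Fully above palbociclib alone was 1 gene, Col3a1, where 14% of all genes were.

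Fibroblast identity genes numbered 7 above both and 0 below of 18 tested. The count above both was 8 with quantile normalization and 5 with the length and GC correction, where 8.5% and 6.52% of all genes lay above both. Fbln1, a glycoprotein of matrix and basement membranes, had an FPKM of 14.8, 11.9 and 13.3 in the OPG-Fc tumours, against 6.32 and 5.22 in the vehicle tumours. Lum, the collagen-binding proteoglycan lumican, had 72.8, 57.2 and 66.2 in the OPG-Fc tumours, against 31.5 and 36.2 in the vehicle tumours. Both were about equally far from either vehicle tumour, at 0.96 and 1.2 for Fbln1 and 1.02 and 0.83 for Lum. The most abundant genes of the list did not separate. Fn1, fibronectin, had 1144, 575 and 686 in the OPG-Fc tumours, against 709 and 84.0 in the vehicle tumours, and S100a4, a calcium-binding protein of motile cells, had 837, 707 and 804 in the OPG-Fc tumours, against 854 and 173 in the vehicle tumours. Adipocyte transcripts moved with the distance from vehicle replicate 1 (summed FPKM 1190 to 3680 in the OPG-Fc tumours, 176 there), and their part in these matrix differences was not tested.

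Among 15 collagen processing enzymes 7 lay above both and 0 below, and among 14 proteoglycan and elastic fibre genes 6 lay above both and 0 below. Loxl1, which crosslinks elastin, had an FPKM of 30.0, 34.6 and 32.8 in the OPG-Fc tumours, against 17.7 and 11.8 in the vehicle tumours. Serpinh1, the collagen chaperone, had 252, 225 and 210.0 in the OPG-Fc tumours, against 149.0 and 45.1 in the vehicle tumours. Fbn1, the microfibril protein fibrillin, had 27.0, 21.8 and 21.7 in the OPG-Fc tumours, against 15.03 and 11.8 in the vehicle tumours, and Mfap2, a partner in microfibrils, had 20.3, 23.9 and 21.2 in the OPG-Fc tumours, against 14.9 and 8.92 in the vehicle tumours. Mmp2, a gelatinase of stromal cells, had 82.6, 73.9 and 96.4 in the OPG-Fc tumours, against 44.1 and 36.7 in the vehicle tumours. The processing enzymes as a list had a median of 0.02 from vehicle replicate 1 and 1.85 from vehicle replicate 2, and the proteoglycan and elastic fibre genes 0.49 and 0.63. After the length and GC correction 3 of the 15 and 5 of the 14 lay above both, where 6.52% of all genes did.

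Basement membrane genes numbered 7 above both and 0 below of 15, with medians of 0.17 from vehicle replicate 1 and 1.65 from vehicle replicate 2. The count above both became 4 with quantile normalization and 3 with the length and GC correction, where 8.5% and 6.52% of all genes lay above both. Against vehicle replicate 1 alone 7 lay above and 4 below, where 39.2% and 26% of all genes did. Lama4, a laminin chain of vessels, had an FPKM of 15.7, 13.0 and 14.8 in the OPG-Fc tumours, against 10.7 and 6.96 in the vehicle tumours. Col18a1, the source of endostatin, had 89.3, 77.6 and 74.9 in the OPG-Fc tumours, against 63.5 and 7.12 in the vehicle tumours, and Sparc, a matricellular protein, had 981, 879 and 889 in the OPG-Fc tumours, against 792 and 288 in the vehicle tumours. Col4a1 overlapped with the vehicle tumours. In the palbociclib groups the median of this list had the other sign, -0.62 for both drugs minus palbociclib alone. With both drugs 13 of 15 genes were lower on the mean, against 46.5% of all genes. Fully below palbociclib alone were 6, against 7.09% of all genes, and fully above it was 1, against 14%.

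**Figure D2:**
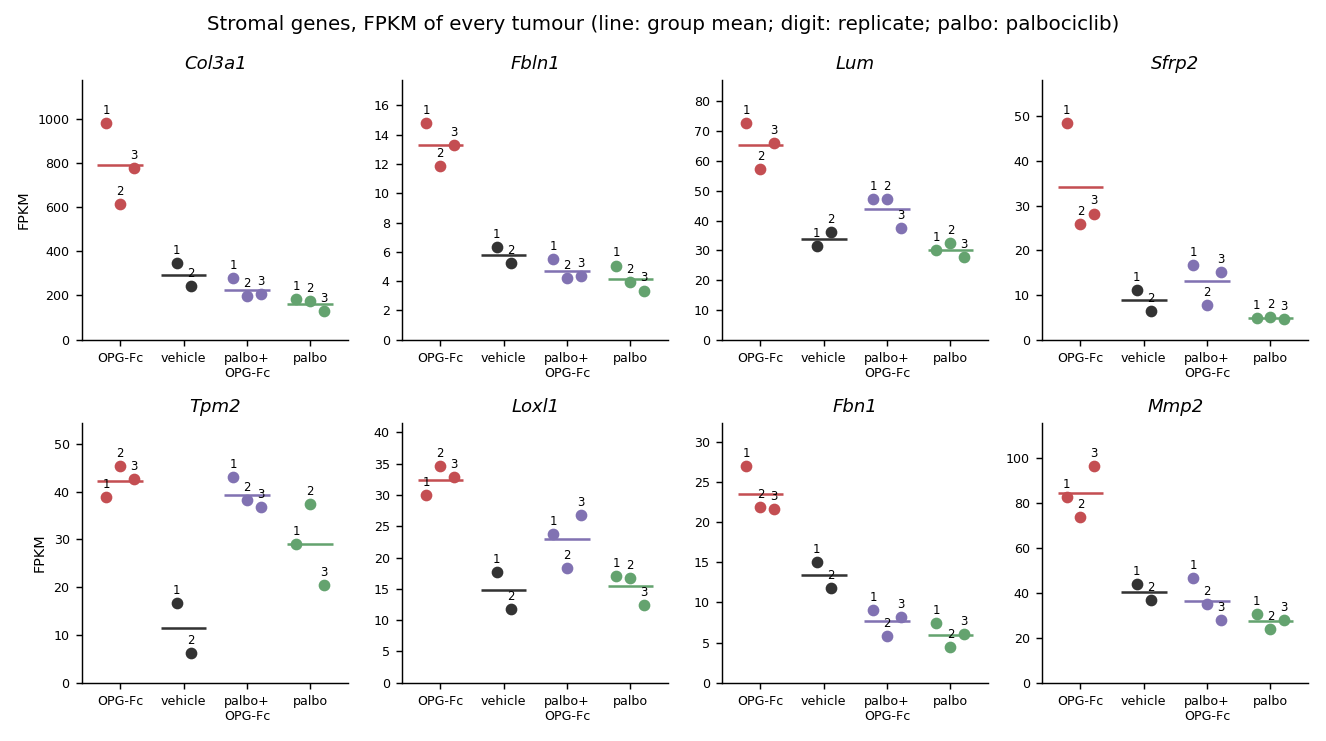
FPKM (y axis, from 0) of 8 stromal genes in every tumour, with OPG-Fc and vehicle on the left of each panel and palbociclib with OPG-Fc and palbociclib alone on the right; lines are group means and digits are replicates. The 8 genes were chosen among those above both vehicle tumours, so this separation is fixed by the choice. The abundant Fn1 and S100a4, which overlapped, are not shown. Sfrp2, Lum and Col3a1 are among those separated in the palbociclib groups as well, where Col3a1 was the only 1 of 10 collagens fully above.

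Vessel genes were nearer to the same distance from each vehicle tumour. Of 20 endothelial genes 11 lay above both and 0 below, with medians of 0.68 from vehicle replicate 1 and 0.28 from vehicle replicate 2. Cldn5, the tight junction protein of endothelium, had an FPKM of 14.5, 13.0 and 10.8 in the OPG-Fc tumours, against 8.06 and 7.89 in the vehicle tumours. Esam, an endothelial adhesion molecule, had 24.1, 19.4 and 22.6 in the OPG-Fc tumours, against 10.98 and 14.7 in the vehicle tumours. The abundant Plvap, of fenestrated vessels, and Eng, a coreceptor for TGF-beta, overlapped. The endothelial count was 7 with quantile normalization, where 8.5% of all genes lay above both, and 4 with the length and GC correction, where 6.52% did. Lymphatic genes were few, with 1 of 4 above both (Flt4, by a gap of 0.04, which turned sign with quantile normalization).

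Of 13 pericyte and smooth muscle genes 8 lay above both and 0 below, with medians of 0.66 and 0.45. Acta2, smooth muscle actin, had an FPKM of 161, 182 and 123.56 in the OPG-Fc tumours, against 91.8 and 37.7 in the vehicle tumours. Tagln, an actin-binding protein of the same cells, had 122.79, 163 and 89.4 in the OPG-Fc tumours, against 69.1 and 38.4 in the vehicle tumours. Both also lay higher on the mean with palbociclib and OPG-Fc than with palbociclib alone, by 1.05 each on the log2 scale. The whole list went both ways there, with 8 genes higher and 5 lower on the mean, where 53.5% of all genes were higher, and a median of 0.16. Fully above were 2 genes and fully below 1, near the 14% and 7.09% of all genes. The count of 8 above both became 5 with quantile normalization and 4 with the length and GC correction, beside the same shares of all genes as for endothelium. In bulk tissue fewer cells of a type and less RNA per cell cannot be told apart.

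Of 18 skeletal muscle genes 12 passed the filter on low values, 5 of them with neither vehicle tumour at an FPKM of 1. Those 5 passed through the OPG-Fc tumours and had to differ, so the count of 8 of 12 above both is partly fixed by the filter and supports nothing. The summed FPKM of the 12, to which the same limit applies, was 130, 534 and 520 in the OPG-Fc tumours, against 109 and 23.2 in the vehicle tumours. It was 208 to 612 in the 6 palbociclib-treated tumours. Myl1, a myosin light chain of fast fibres, had 2.74, 21.9 and 23.1 in the OPG-Fc tumours, and it was listed at 0 in vehicle replicate 1 and at 1.03 in vehicle replicate 2. Tnni2, a fast troponin, had 28.5, 64 and 61.8 in the OPG-Fc tumours, against 19.2 and 1.89 in the vehicle tumours. OPG-Fc replicate 1 was the lowest of the OPG-Fc tumours for each named gene of the list. The part of muscle transcripts in the other differences was not tested.

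Adipocyte genes had 0 of 16 above both and 0 below. Against vehicle replicate 1 all 16 lay above, with a median of 2.93, and against vehicle replicate 2 the median was -0.04. Fabp4, the fatty acid carrier of fat cells, had an FPKM of 671, 1141 and 428 in the OPG-Fc tumours, against 48.0 and 518 in the vehicle tumours, and Cfd, adipsin, had 582, 1116 and 284 in the OPG-Fc tumours, against 29.4 and 522 in the vehicle tumours. Of 13 skin genes 4 passed the filter, 3 of them through the OPG-Fc tumours with neither vehicle tumour at an FPKM of 1, so that no count over them is used. The 4 had a summed FPKM of 6.51 to 11.1 in the OPG-Fc tumours and 2.72 and 1.85 in the vehicle tumours, and the 9 untested genes include the keratin Krt1 and Lor, of the outer epidermis. Vehicle replicate 1 was thus the lowest of the 5 tumours for fat. No such reading is made for muscle and skin genes, because members that passed only through the OPG-Fc tumours had to be low in the vehicle tumours.

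Macrophage genes lay above vehicle replicate 1 and close to vehicle replicate 2. Of 20, 18 had all OPG-Fc values above vehicle replicate 1, against a background of 39.2%, and 5 above vehicle replicate 2, against 40.3%. The medians were 0.72 and -0.16. Above both were 3 genes (Trem2, Apoe and Fcgr1), which is near the background of 12.7%, and 0 lay below both. Trem2, a lipid-sensing receptor of tumour macrophages, had an FPKM of 38.2, 32.5 and 39.4 in the OPG-Fc tumours, against 12.3 and 17.2 in the vehicle tumours. Apoe, a lipid carrier that macrophages secrete, had 1689, 1812 and 1780 in the OPG-Fc tumours, against 585 and 1208 in the vehicle tumours. These values were close among the 3 OPG-Fc tumours, and the distance from vehicle replicate 1 was the larger for both genes. Lyz2, lysozyme, had 2799, 2038 and 1869 in the OPG-Fc tumours, against 702 and 3016 in the vehicle tumours, so it lay between them. In the palbociclib groups, which share no tumour with this comparison, 12 of the 20 genes had all values with both drugs above all values with palbociclib alone (14% of all genes did) and 0 below.

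CD300 and paired myeloid receptors, which tune myeloid activation through activating and inhibitory chains, followed the same course. Of 22 tested, 15 lay above vehicle replicate 1, against 39.2% of all genes. Above vehicle replicate 2 were 9, near the 40.3% of all genes. Above both were 3 (Fcgr3, Cd300ld and Clec4d), near the background of 12.7%. Fcgr3, an activating Fc receptor, had an FPKM of 124.46, 121 and 126 in the OPG-Fc tumours, against 69.8 and 91.6 in the vehicle tumours. It was separated in the palbociclib groups too, at 122, 95.7 and 116 with both drugs and 55.9, 69.6 and 48.2 with palbociclib alone. The most abundant member, the inhibitory Fc receptor Fcgr2b, had 253, 237 and 281 in the OPG-Fc tumours, against 144 and 270 in the vehicle tumours. Of the 22, 14 lay fully above palbociclib alone when OPG-Fc was added, against 14% of all genes, and 0 fully below.

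Neutrophil genes had 4 of 15 above both and 0 below, with medians of 1.30 from vehicle replicate 1 and 0.34 from vehicle replicate 2. S100a8 and S100a9, the subunits of calprotectin, were led by OPG-Fc replicate 1, with an FPKM of 833, 169 and 266 for S100a8 in the OPG-Fc tumours, against 116 and 111 in the vehicle tumours. S100a9 had 752, 169 and 285 in the OPG-Fc tumours, against 107 and 72.7 in the vehicle tumours, and Stfa2, a stefin, had 16.5, 3.69 and 8.43 in the OPG-Fc tumours, against 1.44 and 1.44 in the vehicle tumours. With palbociclib the S100a8 and S100a9 values of the groups with and without OPG-Fc overlapped. Of 10 mast cell and eosinophil genes 9 lay above vehicle replicate 1, against 39.2% of all genes, and 1, Hdc, above both by a gap of 0.10. Of 14 dendritic cell and class II genes 0 lay above both and 2 below, Zbtb46 and Itgax, each by a gap of -0.01.

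Without vehicle replicate 2, limma with Benjamini-Hochberg adjustment called 4 genes higher (0.0321% of 12444) and 0 lower, and 1633 genes (13.1%) had an unadjusted p under 0.05. Cd300ld5, a CD300 family receptor, had an FPKM of 26.8, 13.0 and 20.02 in the OPG-Fc tumours, against 0.53 in vehicle replicate 1 and 22 in vehicle replicate 2. Its log2 difference from vehicle replicate 1 was 3.72 ± 0.36 (SE, adjusted p 0.0157 by limma). Hp, the acute-phase protein haptoglobin, had 275, 227 and 136 in the OPG-Fc tumours, against 24.1 and 120.1 in the vehicle tumours, a difference of 3.03 ± 0.38 without vehicle replicate 2 (adjusted p 0.0363 by limma). Hp was the only one of the 4 that lay above both vehicle tumours, by a gap of 0.18. Lrg1, a secreted leucine-rich glycoprotein of the acute phase, had 63.1, 50.6 and 45.1 in the OPG-Fc tumours, against 7.79 and 87.8 in the vehicle tumours. Gprc5c, an orphan receptor, had 2.95, 3.24 and 3.15 in the OPG-Fc tumours, against 0.30 and 3.96 in the vehicle tumours. For Lrg1 and Gprc5c the differences without vehicle replicate 2 were 2.60 ± 0.31 and 1.66 ± 0.19, each with an adjusted p of 0.0363 by limma. Vehicle replicate 1 was the lowest of all 11 tumours for these 4 genes, and it was also low in adipocyte genes. With OPG-Fc replicate 2 left out as well the count was 1, with quantile normalization 2 and with the length and GC correction 58 higher and 26 lower.

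**Figure D3:**
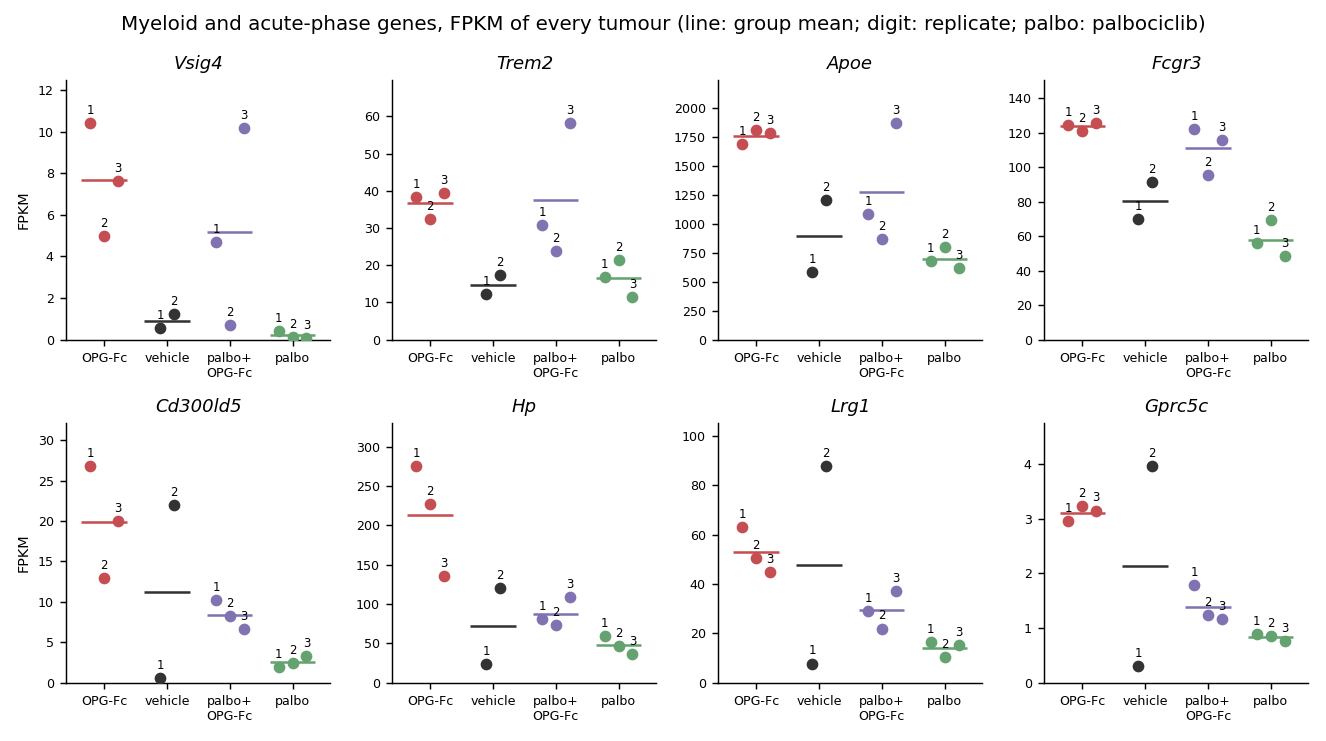
FPKM (y axis, from 0) of 4 myeloid genes above both vehicle tumours (top) and of the 4 genes called without vehicle replicate 2 (bottom) in every tumour, with lines at group means and digits for replicates. The 4 genes of the top row were chosen among those above both vehicle tumours, so this separation is fixed by the choice. Of the 20 macrophage genes and 22 CD300 and paired receptor genes, 3 each lay above both, near the 12.7% of all genes. In the bottom row vehicle replicate 1 is the lowest point of each panel, while vehicle replicate 2 lies among or above the OPG-Fc tumours for Cd300ld5, Lrg1 and Gprc5c.

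The RANK axis itself was low and did not separate. Tnfsf11, the ligand that OPG-Fc binds, had an FPKM of 1.27, 0.93 and 1.46 in the OPG-Fc tumours, against 0.52 and 3.30 in the vehicle tumours. Its receptor Tnfrsf11a had 2.22, 1.49 and 1.47 in the OPG-Fc tumours, against 0.89 and 2.31 in the vehicle tumours. Tnfrsf11b, the mouse gene for osteoprotegerin, had 3.15, 2.23 and 2.21 in the OPG-Fc tumours, against 2.5 and 0.67 in the vehicle tumours. For all 3 genes the OPG-Fc values lay between or across the vehicle values, with log2 differences of -0.21 ± 0.45, 0.11 ± 0.25 and 0.54 ± 0.41 (SE). OPG-Fc is given as a protein, so its dose is not read by these transcripts.

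Tnfsf10, TRAIL, had an FPKM of 4.61, 6.54 and 7.88 in the OPG-Fc tumours, against 11.7 and 10.34 in the vehicle tumours. It lay below both at distances of -0.81 and -0.65, with an adjusted p of 0.458 by limma, and its palbociclib groups overlapped. Its receptor Tnfrsf10b had 13.1, 10.9 and 12.0 in the OPG-Fc tumours, against 14.5 and 2.77 in the vehicle tumours. Over the 21 genes of the pathway 2 lay above both and 4 below (background 12.7% and 8.76%), with a median of -0.12.

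The 2 above were genes of the noncanonical branch at small gaps. Nfkb2, its p100 subunit, had an FPKM of 45.6, 47.1 and 50.8 in the OPG-Fc tumours, against 39.6 and 40.1 in the vehicle tumours, and Map3k14, the kinase NIK, had 13.3, 14.0 and 14.9 in the OPG-Fc tumours, against 11.8 and 12.0 in the vehicle tumours. Both differences turned to -0.04 and -0.06 with the length and GC correction. Relb, the partner of p52, overlapped (15.2, 17.3 and 14.98 in the OPG-Fc tumours, 11.1 and 29.0 in the vehicle tumours). Below both with Tnfsf10 were Traf6, the adaptor of RANK, with 8.03, 8 and 8.24 in the OPG-Fc tumours, against 9.43 and 15.8 in the vehicle tumours, and Tab2 and Ikbkg, of the kinase complexes, by gaps of -0.03 and -0.01. The adaptors Traf2 and Traf3 and the kinases Chuk, Ikbkb and Map3k7 overlapped with the vehicle tumours, as did Nfkb1, Rela, Gab2 and Fos. Nfatc1 had 10.96, 13.2 and 10.8 in the OPG-Fc tumours, against 11.1 and 43.0 in the vehicle tumours.

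Of 15 osteoclast-type genes 1 lay above both and 2 below. Ctsk, the collagen-cleaving cathepsin K, had an FPKM of 65.0, 72.9 and 87.0 in the OPG-Fc tumours, against 54.1 and 23.6 in the vehicle tumours. Prdm1, a repressor that permits osteoclast formation, had 4.98, 4.22 and 4.50 in the OPG-Fc tumours, against 5.77 and 8.90 in the vehicle tumours. Mmp9 had 204, 174 and 192 in the OPG-Fc tumours, against 354 and 2.61 in the vehicle tumours, and Spp1, osteopontin, 3520, 2099 and 2202 in the OPG-Fc tumours, against 2356 and 9.07 in the vehicle tumours. These abundant genes thus lay below or across vehicle replicate 1 and far above vehicle replicate 2. Of 20 NF-kB target genes 1 lay above both (Sod2, by 0.08) and 1 below (Cflar, by -0.01), and of 9 mammary RANK target genes 0 did. Ccnd1, cyclin D1, had 269, 226 and 297 in the OPG-Fc tumours, against 333 and 13.1 in the vehicle tumours.

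Interferon response genes lay below vehicle replicate 1 almost throughout. Of 33 type I interferon genes 30 had all OPG-Fc values below vehicle replicate 1, against a background of 26%, and 0 above, with a median of -0.55. Against vehicle replicate 2, 7 lay below and 17 above, with backgrounds of 43.9% and 40.3% and a median of 0.44. The median over all 5 tumours was -0.12, and 0.02 without OPG-Fc replicate 1. Below both were 7, against the background of 8.76%, and 0 lay above both, and both counts were the same with each scaling and with the length and GC correction. The share of all genes below both was larger under these, at 12.1% with median-of-ratios factors, 15.8% with quantile normalization and 16.6% with the correction, and the 7 of 33 (21.2%) came nearer to it. Samd9l, an antiviral restriction factor, had an FPKM of 20.5, 25.3 and 22.3 in the OPG-Fc tumours, against 34.0 and 48.6 in the vehicle tumours. Trim30a, an interferon-induced ubiquitin ligase family gene, had 16.7, 18.7 and 16.1 in the OPG-Fc tumours, against 23.8 and 40.3 in the vehicle tumours. The others below both, chosen after their values were seen, were Irf7, Irf9, Ddx58, Ifi44l and Parp14.

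Irf7, the factor that amplifies interferon production, had an FPKM of 32.6, 55.2 and 36.6 in the OPG-Fc tumours, against 73.6 and 67.1 in the vehicle tumours. Isg15, a ubiquitin-like protein, was also chosen after its values were seen and had 52.1, 100.1 and 66.5 in the OPG-Fc tumours, against 122 and 30.6 in the vehicle tumours. The OPG-Fc tumours were thus lower than vehicle replicate 1 for Samd9l, Trim30a, Irf7 and Isg15. Vehicle replicate 2, with few epithelial transcripts, was high for Samd9l and Trim30a and low for Isg15. In the palbociclib groups 27 of the 33 genes were lower on the mean with both drugs than with palbociclib alone, against 46.5% of all genes. Fully below palbociclib alone lay 10, against 7.09% of all genes.

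The promoters of 3 of these genes are shown to compare a gene below both vehicle tumours that holds the interferon-response type repeat, a gene below both that does not, and a gene that overlapped. Each is the 250 bases before the start of the gene, in the direction of the gene, from RefSeq on GRCm38.p6. The deposited values were made on the build GRCm39, so the coordinates apply to the older build only. Capitals mark matches to GAAANNGAAA on either strand.
Trim30a, chr7:104465194-104465443, minus strand: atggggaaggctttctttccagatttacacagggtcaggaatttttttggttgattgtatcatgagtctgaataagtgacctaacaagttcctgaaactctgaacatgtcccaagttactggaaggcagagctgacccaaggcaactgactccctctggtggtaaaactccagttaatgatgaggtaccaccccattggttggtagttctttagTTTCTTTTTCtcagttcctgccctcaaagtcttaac
Irf7, chr7:141266425-141266674, minus strand: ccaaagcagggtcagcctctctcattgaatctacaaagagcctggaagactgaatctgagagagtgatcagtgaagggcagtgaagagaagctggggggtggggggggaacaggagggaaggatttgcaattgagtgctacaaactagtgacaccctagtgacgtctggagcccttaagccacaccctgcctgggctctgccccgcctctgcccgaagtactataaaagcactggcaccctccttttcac
Isg15, chr4:156200819-156201068, minus strand: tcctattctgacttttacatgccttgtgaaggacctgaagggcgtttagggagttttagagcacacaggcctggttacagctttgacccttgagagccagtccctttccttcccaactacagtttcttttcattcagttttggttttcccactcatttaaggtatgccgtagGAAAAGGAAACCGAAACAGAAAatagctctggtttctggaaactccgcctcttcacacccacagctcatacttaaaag

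Trim30a held 1 match, Isg15 3 overlapping matches and Irf7 0 in this window. Among 27025 gene symbols with a promoter, 936 (3.46%) held the repeat. Of the 33 type I interferon genes 26 had a promoter in the table, and 11 of these (42.3%) held it. Of the genes below both vehicle tumours 6 had a promoter, and 1 of them (16.7%), Trim30a, held it. A match describes the letters and not a bound site.

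**Figure D4:**
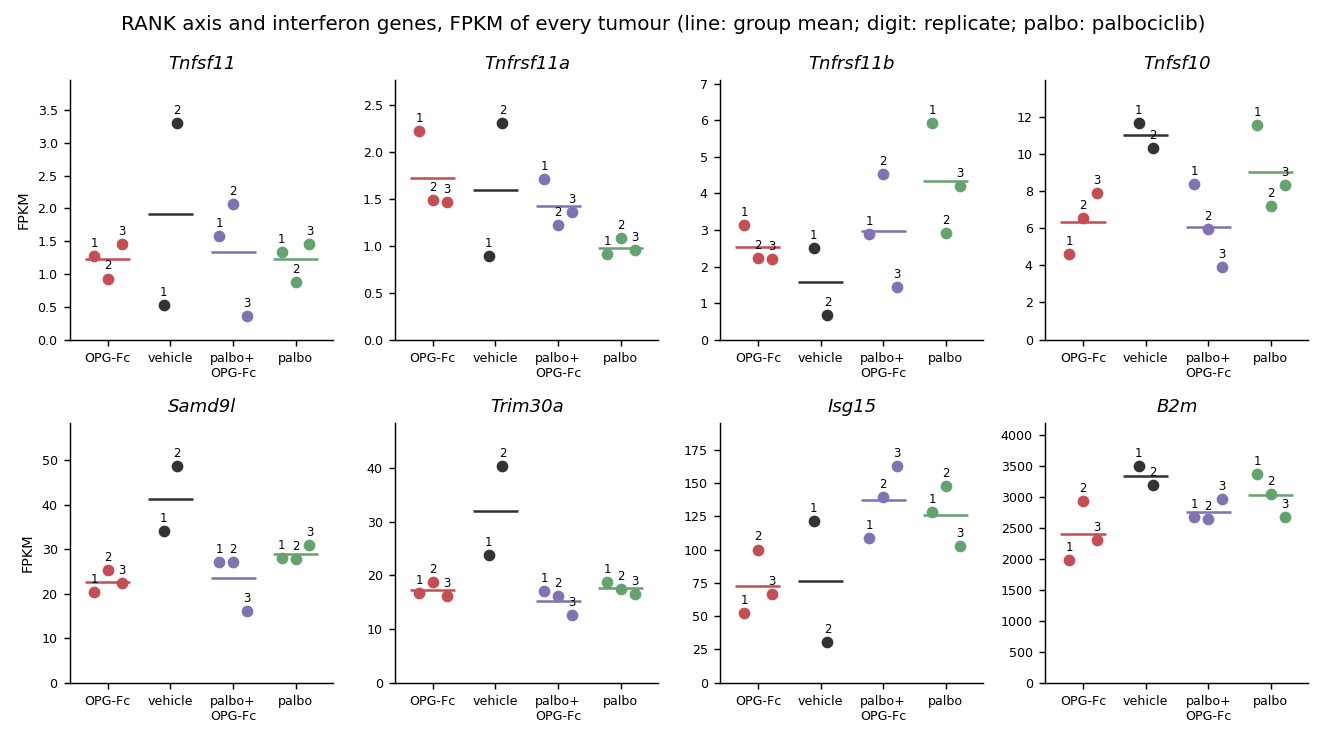
FPKM (y axis, from 0) of 4 genes of the RANK and TRAIL axis (top) and 4 interferon-regulated genes (bottom) in every tumour, with lines at group means and digits for replicates. Tnfsf10, Samd9l, Trim30a and B2m lie below both vehicle tumours in all 3 OPG-Fc tumours, while Tnfsf11, Tnfrsf11a, Tnfrsf11b and Isg15 fall between or across them.

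Of 16 interferon gamma and GTPase genes 13 lay below vehicle replicate 1, against 26% of all genes, and 9 above vehicle replicate 2, against 40.3%. Below both lay 1, the chemokine Cxcl9, by a gap of -0.02, which is near the background of 8.76%. Of 18 class I presentation genes 3 lay below both and 0 above. B2m, the light chain of class I molecules, had an FPKM of 1973, 2933 and 2295 in the OPG-Fc tumours, against 3489 and 3189 in the vehicle tumours. Tap2, of the peptide transporter, had 48.3, 67.5 and 69.0 in the OPG-Fc tumours, against 75.5 and 77.6 in the vehicle tumours, and Erap1, a peptide trimming enzyme, 27.6, 26.8 and 27.7 in the OPG-Fc tumours, against 32.9 and 36.9 in the vehicle tumours. OPG-Fc replicate 1 was the lowest of the 3 for B2m and Tap2. The abundant heavy chain gene H2-D1 overlapped, at 1065, 1544 and 1520 in the OPG-Fc tumours and 1692 and 1398 in the vehicle tumours. Without OPG-Fc replicate 1, 6 of the 18 lay above both and 3 below, and the median was 0.10, where that over all 5 tumours was -0.17. In that setting 2355 of all 12593 genes lay above both and 1647 below, larger shares than with all 5 tumours. The count below became 8 with the length and GC correction, when 16.6% of all genes lay below both.

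Chemokine ligands had 1 of 22 above both and 1 below. Cxcl14, a chemokine of epithelium and stroma, had an FPKM of 150.3, 116 and 122 in the OPG-Fc tumours, against 89.9 and 8.64 in the vehicle tumours. Ccl4, a chemokine of activated macrophages, had 6.12, 6.04 and 4.84 in the OPG-Fc tumours, against 8.12 and 8.82 in the vehicle tumours. The most abundant, Ccl8 and Ccl6, of monocytes and macrophages, lay above vehicle replicate 1 and below vehicle replicate 2. Lymphoid lists were set by vehicle replicate 2, with medians from it of -5.79 for B and plasma cell genes and -3.64 for T and NK cell genes, and 0 of either list lay above or below both. Of 9 lymph node stroma genes 2 lay below both, Il7 and Tnfsf13b, cytokines of lymphocyte survival, with gaps of -0.26 and -0.16.

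Cell cycle genes differed by small amounts. Of 25 G2/M genes 6 (24.0%) lay above both, against 12.7% of all genes, and 0 below. Their medians were 0.28 from vehicle replicate 1 and -0.16 from vehicle replicate 2. Above vehicle replicate 1 lay 21 of the 25, against 39.2% of all genes. From vehicle replicate 2, 6 lay above and 12 below, against 40.3% and 43.9% of all genes. Top2a, the topoisomerase of dividing cells, had an FPKM of 107.7, 108.6 and 105.8 in the OPG-Fc tumours, against 84.8 and 82.9 in the vehicle tumours. Cenpf, a kinetochore protein, had 11.4, 11.5 and 10.49 in the OPG-Fc tumours, against 8.03 and 5.91 in the vehicle tumours. All 25 were higher on the mean when OPG-Fc was added to palbociclib, against 53.5% of all genes. Fully above palbociclib alone were 14 of them, against 14% of all genes. Of 25 G1/S genes 2 lay above both and 1 below, and of 38 cytosolic ribosomal protein genes 5 and 3, which is near the background.

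Among metabolic lists, 2 of 24 hypoxia and glycolysis genes lay above both, with a median of -0.40 from vehicle replicate 1 and 1.09 from vehicle replicate 2, and 3 of 20 sterol and fatty acid genes. Fdps, which makes farnesyl diphosphate, had an FPKM of 83.6, 93.0 and 92.7 in the OPG-Fc tumours, against 57.0 and 30.8 in the vehicle tumours. Of 15 p53 and senescence genes 2 lay above both and 1 below, and Phlda3, a p53-induced inhibitor of AKT, had 22.1, 23.4 and 21.3 in the OPG-Fc tumours, against 13.2 and 9.99 in the vehicle tumours. Of 16 epithelial-mesenchymal transition genes 2 lay above both, and of 16 ER and heat shock genes 2 above and 2 below, shares near the background. Of 6 peripheral nerve genes 1 lay above both (Prx), and of 7 basal and stress keratin genes 1 (Krt14, by 0.03). Epithelial genes had 1 of 18 above both, Krt7, and their medians were -0.20 from vehicle replicate 1 and 4.06 from vehicle replicate 2.

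**Figure D5:**
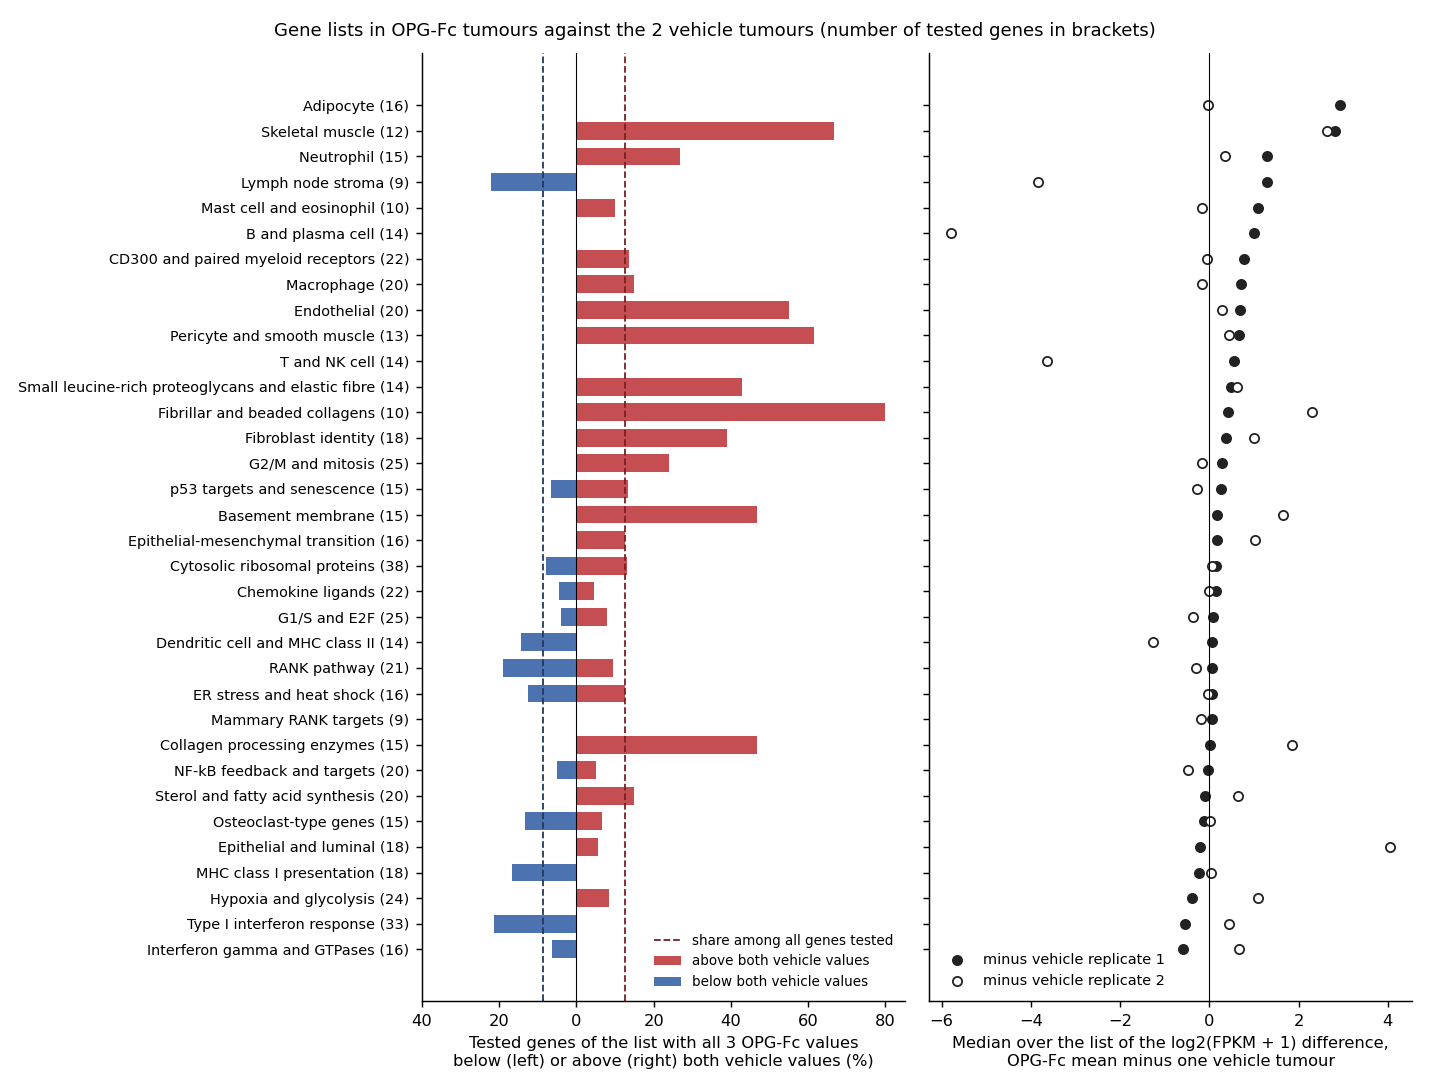
Left, the share of tested genes of each list of at least 9 genes with all 3 OPG-Fc values above (right of 0) or below (left of 0) both vehicle values, in percent, with dashed lines at the shares of all genes (12.7% and 8.76%). Right, the median log2(FPKM + 1) difference of each list from each vehicle tumour; matrix, vessel and muscle lists have the longest bars above (that of muscle partly fixed by the filter), and the lymphoid and epithelial lists the widest distance between the points.

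The genes set apart in this comparison were also looked at in the 6 tumours it did not use. Of the 1608 genes above both vehicle tumours, 1111 (69.1%) were higher on the mean with palbociclib and OPG-Fc than with palbociclib alone, against 53.5% of all genes, and 306 (19.0%) lay fully above, against 14%. Of the 96 with a gap of at least 0.5, 79 (82.3%) were higher on the mean, 32 (33.3%) lay fully above and 0 fully below. Of the 8 with a gap of at least 0.5 below, 3 (37.5%) were lower on the mean and 5 (62.5%) higher, with 0 fully below and 1 fully above. Of the 1113 below both, 711 (63.9%) were lower on the mean, against 46.5% of all genes, and 103 (9.25%) lay fully below, against 7.09%. The genes are not independent of each other, and replicates 1 and 2 with both drugs may come from 1 mouse. These shares are therefore a description. By limma, 0 genes passed for both drugs against palbociclib alone and 776 (6.11%) had an unadjusted p under 0.05. The interaction of the drugs gave 0 calls and 699 genes (5.5%) at an unadjusted p under 0.05.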

How the data were processed

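RNA was measured by poly(A) RNA sequencing in 11 tumours, of which 5 enter this comparison. The authors deposited FPKM values in 1 table of 17181 gene symbols, and the submitters' processing notes name HISAT, Bowtie2, RSEM and the builds GRCm39 and mm39, while versions and roles are not given in the sources used here. Whole reads were searched for in all 55 pairs of libraries, by whether the ratios of values between 0.3 and 1.0 lined up, within 2%, with ratios of small whole numbers. The best alignment held 13.2 to 16.7% of genes against a median of 10.4 to 11.1% over all alignments, and whole reads were not recovered. The depth behind each value is therefore unknown and no interval for counting error is given. The table holds 0 mitochondrial genes.

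Values were taken as log2(FPKM + 1), which understates the change of low genes, and the filter on low values given in the opening left 12701 genes. The fit by group of all 11 libraries used limma 3.58.1 (R 4.3.3) and let the prior variance follow the mean, and p-values were adjusted by Benjamini-Hochberg over all genes tested. Errors are standard errors. The fit was tested on simulated data. The members, gene lists and tests were chosen with earlier results of these data known. The 171 genes that could be named, not all of which are printed, are the 12 with the largest gap on each side, all tested genes of the RANK pathway, up to 2 abundant and 2 most separated genes of each list, and genes called without vehicle replicate 2. Sp100, Srp54b, Srp54c, Fcgr1, Clec4d, Irf7, Irf9, Ddx58, Ifi44l, Parp14, Isg15, Krt1 and Lor are outside this rule and were chosen after their values were seen. Transcript length and GC content came from an annotation of GRCm38 by symbol (97.7% of tested genes) and entered as natural splines with 5 degrees of freedom. Alternatives, each tried alone, were a pseudocount of 0.1, no filter, a filter at an FPKM of 5, other scalings, a constant prior variance, weighted libraries, the 5 libraries alone, the replicate block and each library left out. Another 3, which combine vehicle replicate 2 left out with a further change, were chosen after seeing the data. Tumours with the same replicate number were checked for shared deviations, and the numbers were not taken as pairs. Figures were drawn with matplotlib 3.10.9.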

Additional observations from a re-analysis of the deposited data

Results flagged for a closer look

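Some genes lay fully on one side of vehicle with OPG-Fc alone and fully on the other side of palbociclib alone with both drugs. Of the 1608 genes above both vehicle tumours, 70 (4.35%) lay fully below palbociclib alone with both drugs, against 7.09% of all genes. Of the 1113 below both, 56 (5.03%) lay fully above it, against 14% of all genes. Described here are 3 of them. Gm6750, a predicted gene, had an FPKM of 70.6, 71.1 and 76.9 in the OPG-Fc tumours, against 113.0 and 134.1 in the vehicle tumours, and 104.0, 78.3 and 93.9 with both drugs, against 49.5, 74.4 and 77.8 with palbociclib alone. The difference of its 2 log2 differences was 1.22 ± 0.28 (SE). Srebf1, the sterol and fatty acid regulator SREBP1, had 24.2, 29.2 and 26.5 in the OPG-Fc tumours, against 19.6 and 23.6 in the vehicle tumours, and 21.4, 21.1 and 22.4 with both drugs, against 27.1, 22.7 and 30.1 with palbociclib alone, a difference of -0.57 ± 0.21. Hspa1a, an inducible heat shock protein, had 4.89, 2.71 and 2.56 in the OPG-Fc tumours, against 1.56 and 0.50 in the vehicle tumours, and 1.75, 1.97 and 1.16 with both drugs, against 3.97, 3.69 and 2.37 with palbociclib alone, a difference of -1.84 ± 0.42. Hspa1a shares nearly all of its coding sequence with Hspa1b, so its counting is uncertain. None of the 3 passed the limma interaction test over all genes tested (adjusted p 0.656 for each).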

How the results depend on the processing

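The count of 0 calls in either direction was kept by every alternative in which both vehicle tumours stayed, including the replicate block (0 higher, 0 lower, and 0 for the interaction), which is only a shared number because the labels do not pair the tumours. Leaving out each tumour in turn gave 0 to 2787 genes called higher, 0 to 2521 called lower and 0 to 4842 called for the interaction. The highest values all came without vehicle replicate 1. Genes above both vehicle values ranged from 1608 to 5088 and below both from 1113 to 5565, those at least 1 above from 9 to 1607 and at least 1 below from 0 to 1103; fewer tumours make separation easier by construction. The cause of the following changes was not tested. A pseudocount of 0.1 gave 33 genes at least 1 above and 1 below. Quantile normalization gave 2003 below both and 1 at least 1 below, and the length and GC correction 809 above, 2059 below and 4 at least 1 above. Without vehicle replicate 2 the length and GC correction called 58 higher and 26 lower and set 3333 above, 5109 below, 153 at least 1 above and 9 at least 1 below; quantile normalization called 2 higher and set 3325, 4870, 157 and 10; leaving out OPG-Fc replicate 2 too called 1 higher and set 5306, 3982, 273 and 8. Of separated named genes, Flt4 (-0.07) and Prx (-0.02) turned sign with quantile normalization, and Map3k14 (-0.06) and Nfkb2 (-0.04) with the length and GC correction. Without vehicle replicate 2, Krt14 (-0.22), Tpi1 (-0.06) and Itga5 (-0.03) did so with the length and GC correction and Flt4 (-0.04) with quantile normalization.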
